A study of Phaseolus coccineus with 4 samples.

Results

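ADH2, an alcohol dehydrogenase gene, and the alanine aminotransferase genes ALAAT1, ALAAT2 and ALAAT3 were examined in globular embryos of Phaseolus coccineus, the scarlet runner bean. They are the 4 genes whose symbol begins with ADH or ALAAT and a number in the annotation of a soybean array, which names 6029 soybean genes by a symbol of their own, placeholders included. Together they are read by 5 probe sets, 1 each for ADH2, ALAAT2 and ALAAT3 and 2 for ALAAT1. The genes were selected by symbol with earlier results of these arrays in view, in which ADH2 was higher in suspensor. The signals of both regions thus chose the members, and they are given as a description, with no test.

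There were 2 arrays for embryo proper and 2 for suspensor, which the labels name as biological replicates of unstated plants. All 4 samples came from the cultivar Hammond's Dwarf Red Flower at 6 days after hand pollination, with no treatment or transgene, and each region was cut from tissue sections by laser. RNA input was 60 and 75 ng for embryo proper and 106 and 137 ng for suspensor, more in both suspensor samples. Amplified RNA was hybridised to Affymetrix soybean arrays, so bean transcripts were read by probes designed for soybean, and a dim signal can also come from probes that mismatch the bean transcript.

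Alcohol dehydrogenase reduces acetaldehyde to ethanol and regenerates oxidised NAD, which lets glycolysis run on when oxygen limits respiration. Alanine aminotransferase moves an amino group between glutamate and pyruvate in a reversible reaction, and alanine is a major product of plant tissues short of oxygen. Both enzymes draw on the pyruvate made by glycolysis. The suspensor is the short-lived stalk that anchors the embryo proper and passes nutrients to it. In the scarlet runner bean it has very large cells with many copies of the genome.

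The signal is a linear intensity, scaled by the authors to the same mean on each array. The background level of an array was taken from its probe sets for Phytophthora and a nematode, which match neither plant, at their 95th percentile, and lay between 873 and 1034. Between 7328 and 8742 of the 37593 soybean probe sets were above it on an array. The hybridisation spikes, bacterial and phage sequences added before hybridisation, had a median signal of 97327 and 159448 in suspensor, against 46706 and 58957 in embryo proper, 2.37-fold higher in suspensor on the log scale. Marker genes gave little check of the regions. GA20OX3, listed for suspensor, LEC1-A, listed for embryo proper, and LAR1 and ANR1, listed for seed coat, were below background on all 4 arrays. None of them was at 0, and no endosperm marker matched a symbol. GA20OX3 read 772 and 527 in suspensor, against 37.9 and 305 in embryo proper. LEC1-A read 360 and 823 in suspensor, against 250 and 181 in embryo proper, and so did not mark embryo proper. The seed coat markers summed to 237 to 320 in embryo proper and to 182 to 545 in suspensor.

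ADH2, read by a single probe set, was bright in suspensor and about an order of magnitude dimmer in embryo proper. Its signal was 34664 and 28782 on suspensor arrays 1 and 2, against 2487 and 5005 on embryo proper arrays 1 and 2. Both suspensor arrays stood far above both embryo proper arrays, and the regions did not overlap. All 4 signals were above background, at 37.5 and 27.8 times that level in suspensor and 2.82 and 5.73 times in embryo proper. ADH2 was therefore measured in the samples of both regions, and the marker genes gave little check of how cleanly these were cut apart. In bulk tissue, fewer cells with a transcript and less transcript per cell cannot be told apart.

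The ADH2 signal averaged 31700 ± 4160 (SD, n = 2) over the suspensor arrays, compared with 3750 ± 1780 (SD, n = 2) over those of embryo proper. On the scale of log2(intensity + 16) the difference was 3.16, or 8.91-fold. Taken pair by pair, the closest arrays of the regions differed 5.74-fold and the farthest 13.9-fold. That range came mostly from embryo proper, where the arrays differed 2.01-fold, while the suspensor arrays differed 1.2-fold. A gap as large as that between the embryo proper arrays was seen in 12.4% of tested probe sets, and one as large as that between the suspensor arrays in 74.3%.

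**Figure D1:**
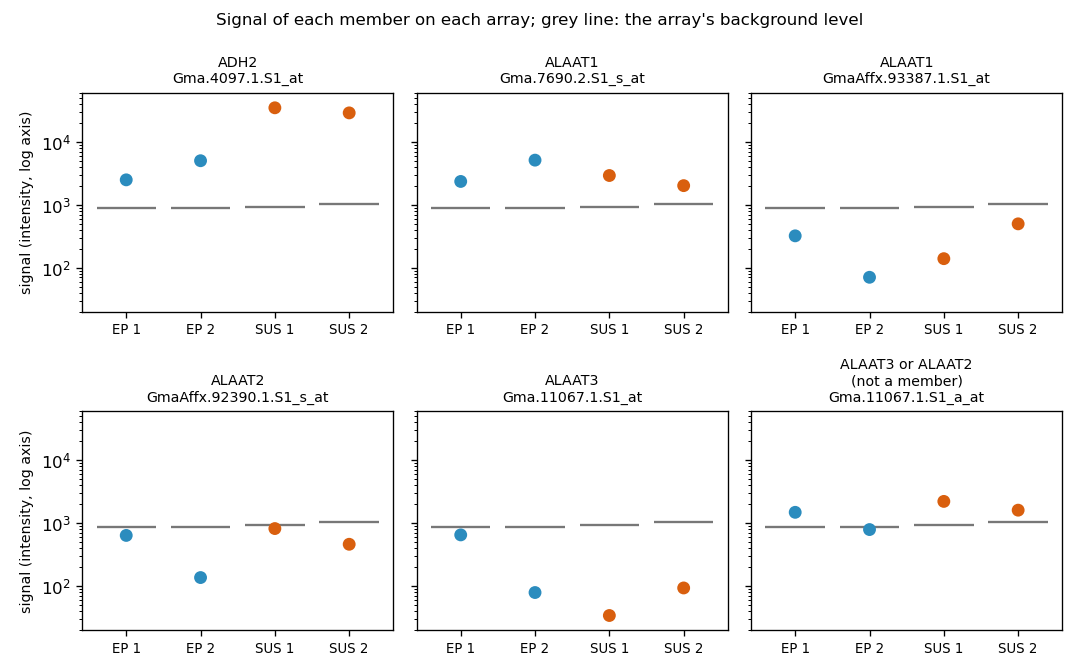
Signal (intensity, log axis) of the 5 probe sets, and of the probe set that lists both ALAAT3 and ALAAT2, on embryo proper (EP, blue) and suspensor (SUS, orange) arrays 1 and 2; each point is 1 array and grey lines mark that array's background level. ADH2 is the member whose suspensor points, at 34664 and 28782, lie clear of its embryo proper points, and 3 alanine aminotransferase probe sets lie below background on every array.

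The spike signal differed by region beside ADH2, as did some photosynthesis probe sets. When arrays were centred on the spikes, a setting added after seeing the data, the ADH2 difference was 1.91 on the log2 scale, or 3.76-fold, and still positive. That centring also took the median of all tested probe sets from -0.183 to -1.43, and by construction ADH2 stood 3.34 above the median of tested probe sets under either scale. There were 10 probe sets for PSAD, a photosystem I subunit, and CAB3, a chlorophyll a/b-binding protein, of which 5 were tested. Of these, 2, 1 of each gene, were called higher in embryo proper (limma, adjusted p under 0.05). Over all tested probe sets, 1.86% were called higher in embryo proper. The other tested PSAD probe set had a log2 difference of 0.37 and did not pass, so the PSAD probe sets disagreed in sign. These 10 summed to 25188 and 34298 in embryo proper and to 9921 and 8085 in suspensor, and none was at 0. The called PSAD probe set made up much of the gap, with 11947 and 17685 in embryo proper against 733 and 734 in suspensor. A soybean actin probe set near the 3' end of the transcript read 13961 and 5246 in embryo proper, against 2766 and 4375 in suspensor. Near the 5' end, a probe set read 89.7 and 400 in embryo proper, against 857 and 1217 in suspensor, with only 1217 above background. Another 5' probe set read 74.8 and 384.5 in embryo proper, against 520 and 1329 in suspensor, with only 1329 above background. A further 5' probe set, below background throughout, read 490 and 318.5 in embryo proper, against 656 and 82.3 in suspensor. A dimmer 3' probe set read 2290 and 1891 in embryo proper, against 1399 and 1381 in suspensor. The part of the photosynthesis and actin signals in the ADH2 result was not tested. Spike signal and RNA input were higher for both suspensor arrays, so with these 4 arrays their part cannot be told apart from region. The part of amplification was not tested.

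ALAAT1 was the alanine aminotransferase gene with a signal above background under a symbol of its own. Its brighter probe set read 2914 and 2013 in suspensor, against 2345 and 5112 in embryo proper. All 4 were above background, and the regions overlapped: the highest and the second lowest arrays were both embryo proper. The mean was 3730 ± 1960 (SD, n = 2) in embryo proper and 2460 ± 637 (SD, n = 2) in suspensor. The log2 difference of suspensor minus embryo proper was -0.51, with pairs of arrays from -1.34 to 0.31. The pairs of arrays thus differed in sign. This probe set has shared probes, so it may read more than 1 transcript.

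Embryo proper replicate 2 carried much of the ALAAT1 value. It was 2.18 times as high as replicate 1, a gap that 10.3% of tested probe sets reached. Without embryo proper replicate 2 the ALAAT1 log2 difference was 0.05, and without embryo proper replicate 1 it was -1.07. ADH2 was also higher on embryo proper array 2 than on array 1. The other ALAAT1 probe set was below background throughout, at 139 and 498 in suspensor, against 321 and 70.5 in embryo proper. Its order of arrays differed from that of the brighter probe set, and signals at that level give no fold.

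ALAAT2 and ALAAT3 were not measured above background by their own probe sets. The ALAAT2 probe set, which has shared probes, read 827 and 465 in suspensor, against 643 and 138 in embryo proper. The highest of these, on suspensor array 1, was 0.89 times that array's background level. The ALAAT3 probe set read 34.4 and 94.2 in suspensor, against 656 and 79.7 in embryo proper. Here embryo proper array 1 alone was bright among the dim, at 0.74 times background, and the regions overlapped. A low signal on these probes may come from bean sequence that differs from soybean as well as from few transcripts, and neither was tested.

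A further probe set lists both ALAAT3 and ALAAT2 and is no member of the set. It read 2232 and 1620 in suspensor, against 1497 and 797 in embryo proper, of which 797 is below background. Both suspensor arrays were above both embryo proper arrays, but the closest pair differed by only 1.08-fold. The log2 difference was 0.79, or 1.73-fold. It shares an identifier stem with the ALAAT3 probe set, which stayed below background, so the signal seen here could not be given to a gene. This probe set has shared probes, and whether it reads ALAAT1 as well was not tested. Another probe set, with the stem of the brighter ALAAT1 probe set, carries the placeholder symbol LOC100305919. It read 209 and 888 in suspensor, both below background, against 893 and 929 in embryo proper, both just above it.

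Of the 5 probe sets, 2 passed the filter on dim probe sets, which asks for a signal above background on at least 2 arrays: those of ADH2 and of ALAAT1, both above background on all 4. Over all 8972 soybean probe sets that passed, both suspensor arrays were above both embryo proper arrays in 19.8%, and the reverse held in 33.4%. ADH2 belonged to the first class and ALAAT1 to neither. The median log2 difference was -0.183, and 40.8% of tested probe sets had a positive one. A difference at or above that of ADH2 was seen in 46 tested probe sets, or 0.513%, and 10 of these carried a symbol other than a placeholder. A difference at or above that of ALAAT1 was seen in 65.2%. These ranks describe values that chose the genes and support nothing further.

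**Figure D2:**
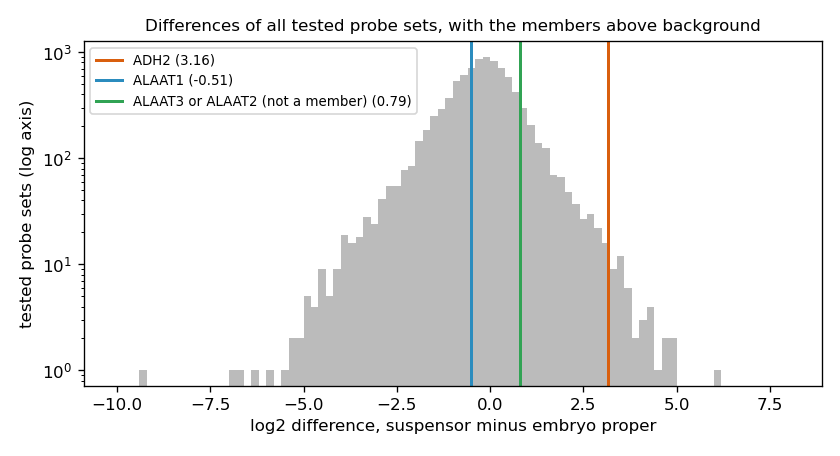
Number of tested probe sets (log axis) by log2 difference of suspensor minus embryo proper, in steps of 0.2, with lines for ADH2 (3.16), ALAAT1 (-0.51) and the probe set that lists both ALAAT3 and ALAAT2 (0.79). ADH2 lies in the upper tail, while the alanine aminotransferase lines lie in the body of the distribution.

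The pathways around both enzymes were followed through 5 lists of symbols: aldehyde dehydrogenases with pyruvate decarboxylase and lactate dehydrogenase, sucrose cleavage and glycolysis, enzymes of phosphoenolpyruvate, malate and pyruvate, amino-nitrogen metabolism, and the low-oxygen response. They matched 82 probe sets of 48 genes, of which 24 probe sets of 19 genes were tested. With limma's test and an adjusted p under 0.05, 2 of the 24 were called as higher in suspensor, and 0 as higher in embryo proper. At an unadjusted p under 0.05 the counts were 8 and 3, against shares of 6.55% toward suspensor and 13.5% toward embryo proper over all tested probe sets. After adjustment 2.75% of all tested probe sets were called, 0.892% as higher in suspensor and 1.86% as higher in embryo proper. The median log2 difference of the 24 was 0.5, and 14 were positive. The lists were chosen with earlier results of these data known, so these counts are a description and support nothing further.

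The aldehyde dehydrogenase list matched no pyruvate decarboxylase or lactate dehydrogenase symbol, so of the enzymes that form ethanol only ADH2 was read by symbol. Genes for the others may be on the array under a placeholder or with no symbol, and ethanol itself was not measured. Of the list's 5 tested genes, 1 was called, as higher in suspensor, beside 0.892% of all tested probe sets. ALDH5F2, of the family that oxidises succinic semialdehyde in the breakdown of the amino acid GABA, read 30169 and 26395 in suspensor, against 5274 and 6401 in embryo proper. It rose 4.85-fold in suspensor, with both suspensor arrays above both embryo proper arrays (limma, adjusted p = 0.018). ALDH6B1 was below background on both suspensor arrays and at least 1.9-fold higher in embryo proper, without passing (limma, adjusted p = 0.11). ALDH7B1, ALDH10A1 and ALDH10A2 had log2 differences of 0.54, -0.32 and -0.4 and did not pass. The genes ALDH2B4 and ALDH2C8, of the family that oxidises acetaldehyde, were below background on all 4 arrays.

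Sucrose synthase, which cleaves sucrose at the entry to glycolysis, was the other call. The brighter SS probe set read 72200 and 65246 in suspensor, against 13000 and 10125 in embryo proper, 5.98-fold higher in suspensor (limma, adjusted p = 0.014). A dimmer SS probe set with shared probes stayed dim in embryo proper, with both arrays below background; suspensor was higher by at least 1.42-fold, without passing (adjusted p = 0.23). GAPC1, a cytosolic glyceraldehyde-phosphate dehydrogenase, read 2414 and 1446 in suspensor, against 4323 and 2405 in embryo proper, and the regions overlapped. Its log2 difference of -0.78 did not pass (adjusted p = 0.36). PK3 stood at -0.15 and PK6, a symbol that in soybean has been used for a protein kinase, at -1.5, and neither passed. Symbols of nodulins, seed maturation proteins and polygalacturonase inhibitors also fitted the patterns of this list, and all of these were below background.

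Among the enzymes that feed or drain pyruvate and malate, 0 of 6 tested probe sets were called by limma, and 2 had an unadjusted p under 0.05, both higher in suspensor, which 6.55% of all tested probe sets were. Phosphoenolpyruvate carboxylase makes oxaloacetate from phosphoenolpyruvate. The tested PEPC7 probe set, which has shared probes, read 2450 and 1714 in suspensor, with both embryo proper arrays below background. It was at least 2.31-fold higher in suspensor without passing (limma, adjusted p = 0.07). Without a filter or without a variance trend it was called. Other PEPC7 probe sets were below background on all 4 arrays. PPC1 was likewise below background in embryo proper, with suspensor higher by at least 1.39-fold (adjusted p = 0.3). PEPC16 and PEPC17 stood at 1.12 and -0.28. Malate dehydrogenase, MDH-1, had log2 differences of 0.67 and 0.38 by its tested probe sets.

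In amino-nitrogen metabolism 0 of 4 tested probe sets were called by limma, and 2 had an unadjusted p under 0.05, both toward suspensor, beside the same background of 6.55%. The cytosolic glutamine synthetase GS1alpha read 5578 and 4380 in suspensor, against 1897 and 1819 in embryo proper, 2.65-fold apart with no overlap (limma, adjusted p = 0.077). It was called in 4 of 15 other settings, namely quantile normalization, centring on the tested probe sets, and either stricter filter. AAT, an aspartate aminotransferase, works on glutamate as alanine aminotransferase does. Its most different probe set read 1907 and 2116 in suspensor and was below background in embryo proper, at least 2.27-fold higher in suspensor without passing (adjusted p = 0.17). A further AAT probe set stood at 1.3, and its regions overlapped. Glutamate dehydrogenase, GDH2, stood at -0.09 by its tested probe set. An untested GDH2 probe set read 521 and 1064 in embryo proper, against 23.5 and 23.4 in suspensor, with only 1064 above background. The GS1alpha and AAT probe sets have shared probes.

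Of 4 tested probe sets on the low-oxygen list, 0 were called by limma. At an unadjusted limma p under 0.05 there was 1 in each direction, beside 6.55% and 13.5% over all tested probe sets. The 4 probe sets read 2 of the list's 8 genes: ERF3, an ethylene-response factor, and AOX3, an alternative oxidase that passes electrons to oxygen in mitochondria. The list took any ERF or AOX symbol, so these probe sets are no measure of a response to low oxygen. One ERF3 probe set had both embryo proper arrays below background, and suspensor was higher by at least 2.56-fold (adjusted p = 0.079), while another stood at -0.14. One AOX3 probe set read 1311 and 254 in suspensor, against 3124 and 4832 in embryo proper (adjusted p = 0.1), and another stood at 0.45. The probe sets of each gene thus disagreed in sign, and neither gene has a settled direction. ERF6, AOX1, AOX2 and GLB3 were below background on all 4 arrays.

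**Figure D3:**
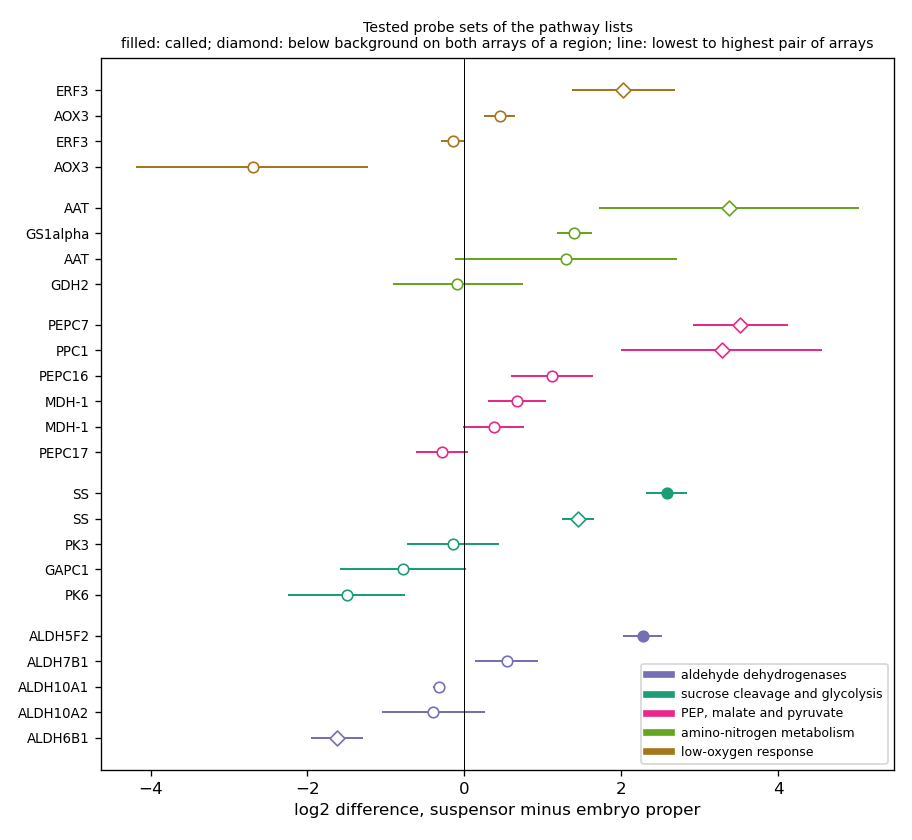
Log2 difference of suspensor minus embryo proper for the 24 tested probe sets of the pathway lists, by gene; filled points were called by limma (SS at 2.58 and ALDH5F2 at 2.28), diamonds were below background on both arrays of 1 region, and lines run from the lowest to the highest pair of arrays. Lines that cross 0 mark probe sets whose regions overlapped.

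The SS and ALDH5F2 differences could not turn toward embryo proper when 1 array was left out, since the regions do not overlap. Their calls could be lost. With 1 array left out, SS was 5.27-fold to 6.77-fold and ALDH5F2 4.4-fold to 5.34-fold higher in suspensor. Neither was called without embryo proper replicate 1 or without embryo proper replicate 2, where the spread comes from the suspensor arrays alone. Both were called without suspensor replicate 1 and without suspensor replicate 2, where the spread comes from the embryo proper arrays alone. The lost and the kept calls thus say little of these genes. With all 4 arrays but no variance trend, neither was called (limma, adjusted p = 0.056 for SS and 0.067 for ALDH5F2). Centred on the spikes, no pathway probe set was called toward suspensor (0 of 24), and 4 were called toward embryo proper, those of ALDH6B1, AOX3, GAPC1 and PK6. Over all tested probe sets, the 80 calls toward suspensor and the 167 toward embryo proper became 186 and 231 after quantile normalization and 13 and 2305 on the spike scale.

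The genes most like ADH2 over the 4 arrays were found by the root mean square difference of log2 values, each probe set centred on its own mean, among 340 other genes with a symbol. They were PEPC7 at 0.23, GASA14 and OSBP at 0.37 each, ALDH5F2 at 0.51 and PPC1 at 0.53. GASA14 belongs to a gibberellin-regulated peptide family and OSBP is an oxysterol-binding protein. GASA14 read 87492 and 67857 in suspensor, against 10669 and 11433 in embryo proper. OSBP read 6406 and 7159 in suspensor, against 914 and 1515 in embryo proper. As for ADH2, embryo proper array 1 was the lowest of the 4 for each of these genes, which were picked for such likeness. PEPC7 and PPC1 were below background in embryo proper, so their likeness rests in part on signals with no settled order. The PEPC7 and GASA14 probe sets have shared probes. Among all tested probe sets, named or not, 7 were nearer to ADH2 than PEPC7.

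The genes most like the brighter ALAAT1 probe set were TENA_E at 0.17, WRKY35 at 0.22, BZIP122 at 0.24, and ADR11 and PHR25 at 0.25 each. WRKY35 and BZIP122 are named for families of transcription factors. All were highest on embryo proper array 2 and lowest on suspensor array 2, except that TENA_E was lowest on embryo proper array 1. These genes, too, were picked for likeness over the same arrays. PHR25 read 6789 and 3851 in suspensor, against 6853 and 9863 in embryo proper. Their log2 differences between regions ran from -0.68 to -0.2. With a small difference between regions, likeness to ALAAT1 is common: 42 tested probe sets were nearer to it than TENA_E.

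**Figure D4:**
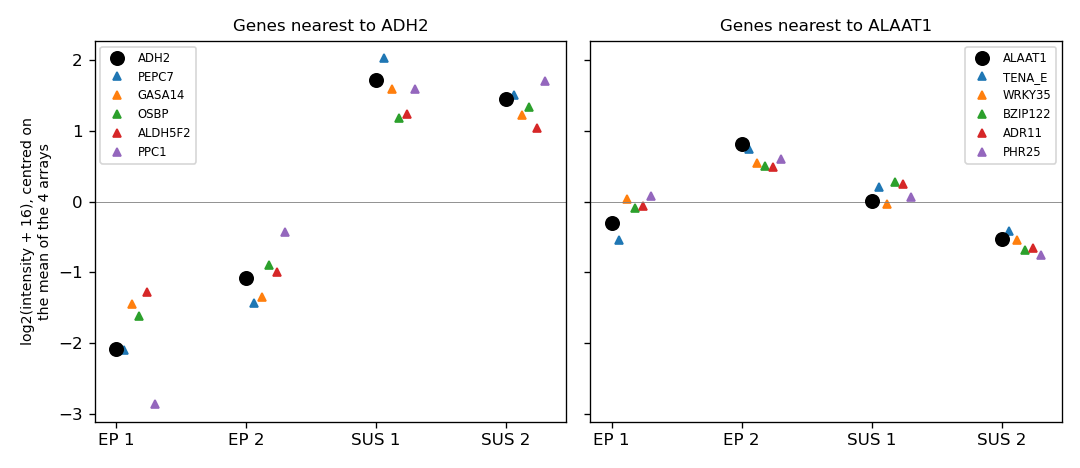
Values of log2(intensity + 16) on embryo proper (EP) and suspensor (SUS) arrays 1 and 2, centred on each probe set's mean over the 4 arrays, for ADH2 and ALAAT1 (black) and the 5 genes nearest to each (coloured, set slightly apart along the axis). ADH2 and its nearest genes split by region, while ALAAT1 and its nearest genes peak on embryo proper array 2. The genes were picked for likeness over these 4 arrays, so the shared pattern follows from the choice.

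The ADH2 difference was positive under each of 10 other settings, from 1.91 with arrays centred on the spikes to 3.66 without embryo proper replicate 2. Its sign could not turn when 1 array was left out, since the regions do not overlap. The ALAAT1 difference ran from -1.76 on the spike scale to 0.05 without embryo proper replicate 2. The dimmer ALAAT1 probe set and that of ALAAT2 changed sign in 3 and 2 of the 10 settings, and that of ALAAT3 stayed negative, from -3.17 to -0.36. These 3 probe sets were below background, so the values show how unsettled their differences were.

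**Figure D5:**
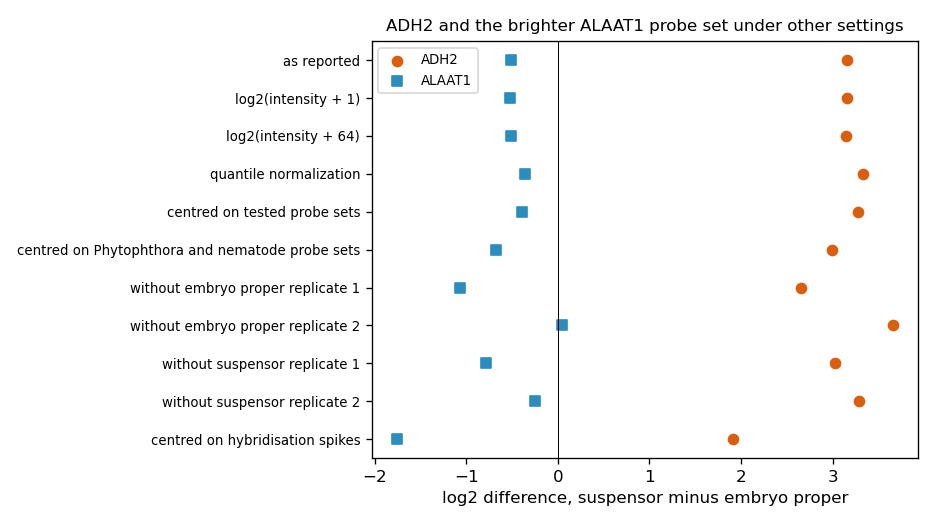
Log2 difference of suspensor minus embryo proper for ADH2 (circles) and the brighter ALAAT1 probe set (squares), as reported and under 10 other settings. ADH2 stays between 1.91 and 3.66, and ALAAT1 lies between -1.76 and 0.05, crossing 0 without embryo proper replicate 2.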

How the data were processed

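The deposited values are linear intensities, 1 per probe set and array, with GCOS 1.3 named in the submitters' processing notes. How GCOS summarised probes is not given in the sources used here, nor are detection calls. Each array's mean, trimmed of 2% at each end, was 500. Soybean probe sets above background on at least 2 of 4 arrays, 8972 in all, were tested on log2(intensity + 16), which understates folds of dim probe sets, with limma 3.58.1 under R 4.3.3 (lmFit, eBayes with a variance trend, Benjamini-Hochberg adjustment). With 2 arrays per region, the p-values reflect the spread between these samples alone, which may be technical. A fold "at least" sets the bright region's mean log2 value against the dim arrays, each taken at its lowest soybean signal above background, or at the probe set's own signal where that is higher.

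Symbols came from the platform annotation. Of the soybean probe sets 8677 had 1 symbol, 7001 of them placeholders, 370 had several and 28546 had none. The bean gene table shared 0 identifiers with it, so no positions or sequences are given. Members, lists and the 5 nearest genes to name (smallest root mean square difference to ADH2 or to the brighter ALAAT1 probe set) were chosen with earlier results of these data known. Pathway lists were sets of symbol patterns, counted by probe set. Alternatives covered the pseudocount, scaling, background, filter, variance trend, shared probes, replicate block and each array left out.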

Additional observations from a re-analysis of the deposited data

How the results depend on the processing

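Centring on spikes was added after seeing the data, and the other settings were planned. Calls over all tested probe sets numbered 80 for suspensor and 167 for embryo proper. Quantile normalization gave 186 and 231, centring on the tested median 129 and 196, on Phytophthora and nematode probe sets 48 and 154, and on the spikes 13 and 2305. A background at the 99th percentile gave 134 and 293, detection on every array 192 and 334, no variance trend 21 and 66, and no shared probes 35 and 71. Leaving out 1 array gave 3 to 153 and 3 to 1054, with the lone array assumed to vary like the other region. The median log2 difference, -0.183, became -0.062, -0.349 and -1.43 under the tested, Phytophthora and nematode, and spike centrings. The replicate block gave 138 and 292, and pathway calls rose from 2 to 3 in suspensor (ERF3 gained) and from 0 to 1 in embryo proper (AOX3). Pairing was not assumed, because no label says what a shared replicate number stands for. The deviations of same-numbered arrays had a correlation of -0.024. Pathway calls higher in suspensor, 2 as reported, were 3 after quantile normalization, centring on the tested median or either stricter filter (GS1alpha gained each time), 3 with no filter (PEPC7 gained), 1 without a variance trend (PEPC7), 0 on the spike scale, with 4 higher in embryo proper, and 0 to 2 with 1 array left out, with 0 to 1 in embryo proper. On the spike scale ADH2 was 1.91, the brighter ALAAT1 probe set -1.76 and ALAAT2 -0.25. With 1 array left out, ADH2 ran from 2.65 to 3.66. The stricter filters tested fewer probe sets, and for the remaining settings the cause was not tested. Signal over background limits what can be said of ALAAT2 and ALAAT3.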
